A study of Mus musculus with 12 samples.

Results

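The respiratory chain of the mitochondrial inner membrane is built from subunits of both the nuclear and the mitochondrial genome, and the nuclear-encoded subunits are described here. Their genes were chosen by symbol: Nduf genes of the a, b, c, s and v series for complex I, Sdha to Sdhd for complex II, Uqcr genes and Cyc1 for complex III, Cox4 to Cox8 genes for complex IV, and Atp5 genes for ATP synthase (complex V). Of 84 genes with a matching symbol, 78 reached a level of 1 CPM (the usual count unit scaled to library depth) in 3 or more of the 12 libraries and form the set, out of 50674 genes in the table. Complex I contributed 36 genes, complex II 4, complex III 9, complex IV 12 and complex V 17. All 78 passed the filter on low counts and were among the 17457 genes tested. The rule itself uses no difference between groups, but it was set with earlier results of these data known.

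Complex I (NADH dehydrogenase) and complex II (succinate dehydrogenase) pass electrons from the tricarboxylic acid cycle to ubiquinone. Complex III hands them to cytochrome c, and complex IV (cytochrome c oxidase) hands them to oxygen. Complexes I, III and IV pump protons, and complex V uses the resulting gradient to make ATP. In natural killer (NK) cells, cytokine activation is known to raise both glycolysis and oxidative phosphorylation, and oxidative phosphorylation is known to be needed for receptor-driven cytokine production.

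The RNA came from NK cells, cytotoxic lymphocytes of the innate immune system, that were grown from mouse spleen with interleukin 2. The groups were Mirc11-/- cells stimulated for 6 h through the activating receptor NKG2D, unstimulated Mirc11-/- cells, wild-type cells stimulated in the same way, and unstimulated wild-type cells, all labelled C57BL/6, with 3 biological replicates each. Mirc11 names a cluster of microRNA genes (miR-23a, miR-27a and miR-24-2), and the labels do not say in which cells it was deleted or how old the mice were. The p-values measure the spread between these libraries. Because RNA was measured in bulk, fewer cells of a type and less RNA per cell cannot be told apart.

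Totals were 15139281 to 25342991 counts per library. Mir27a, a gene of the deleted cluster, had 0 counts in the 6 Mirc11-/- libraries and 13 counts in all over the 6 wild-type libraries. The NK markers Ncr1, Klrb1c, Klrk1, Eomes, Tbx21, Gzmb, Prf1 and Nkg7 were detected in every group, and their summed level was 3466 to 5590 CPM in stimulated Mirc11-/-, 10640 to 11580 CPM in unstimulated Mirc11-/-, 6549 to 7874 CPM in stimulated wild-type and 9711 to 11860 CPM in unstimulated wild-type libraries. Gzmb and Prf1 made up most of that sum. In Mirc11-/- cells Gzmb averaged 3159 CPM stimulated and 7451 CPM unstimulated, and Prf1 1063 and 2492 CPM. Ncr1, Klrb1c, Eomes and Nkg7 were also lower on average in stimulated cells of both genotypes, while Klrk1 and Tbx21 were higher. Klrk1 averaged 140 and 127 CPM in stimulated and unstimulated Mirc11-/- cells, and 142 and 114 CPM in wild-type cells. Summed markers of other cell types were at most 207 CPM for dendritic cells, 129 CPM for B cells, 111 CPM for T cells, 19.1 CPM for macrophages and monocytes, 2.197 CPM for neutrophils and 0.232 CPM for erythroid cells and platelets. Stimulated Mirc11-/- replicate 1 stood apart: transcripts of vomeronasal receptor genes, which NK cells are not known to use, summed to 90.6 CPM in it, to 48.6 and 57.9 CPM in the other stimulated Mirc11-/- libraries, to 24.4 to 40.3 CPM in stimulated wild-type libraries and to 13.1 to 18.4 CPM in the 6 unstimulated libraries. The gene models Gm10718, Gm10800 and Gm26870 together took 6.36%, 3.61% and 4.31% of the counts in stimulated Mirc11-/- replicates 1 to 3, 3.5%, 1.41% and 0.783% in stimulated wild-type replicates 1 to 3, and 0.0231% to 0.122% in unstimulated libraries. Protein-coding genes took 62.1% to 64.4% in stimulated Mirc11-/-, 66.7% to 70.1% in unstimulated Mirc11-/-, 66% to 66.7% in stimulated wild-type and 70.4% to 71% in unstimulated wild-type libraries. The part of these shares in the results was not tested.

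The members differed widely in level. Per kilobase of transcript, the highest were Atp5b, the catalytic beta subunit of ATP synthase, at 329 CPM per kb over all 12 libraries, and Cox4i1, the widely expressed isoform of a regulatory complex IV subunit, at 268 CPM per kb. Cox8a, a small complex IV subunit, followed at 220.5 CPM per kb. Atp5a1, the alpha subunit beside Atp5b in the ATP synthase head, had 193 CPM per kb. Within the other complexes, Uqcrh, the hinge protein of complex III, led with 179 CPM per kb, Ndufa7, an accessory subunit of complex I, with 82.8 CPM per kb, and Sdhb, the iron-sulphur subunit of complex II, with 55.1 CPM per kb. Cox7a1, the heart and muscle isoform of Cox7a, was the member closest to the limit of 1 CPM, which it reached in 5 libraries.

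Isoforms known from other tissues lay below that limit and were left out: Cox4i2 of lung, Cox6a2 and Cox8b of heart and muscle, Cox6b2, Cox7b2 and Cox8c. Cox6a2 came closest, with 0.128 to 0.991 CPM. Their widely expressed counterparts Cox4i1, Cox6a1, Cox6b1, Cox7b and Cox8a each had 42.9 CPM or more in every library. Atp5s and Atp5sl match the symbol rule but are named Dmac2l and Dmac2 in RefSeq, and Dmac2 is known as an assembly factor of complex I rather than a part of ATP synthase. Ndufa4, counted here by its symbol in complex I, is now known to sit in complex IV. For 5 members over 50% of the 31-base words of their transcripts also occur in other genes, so their counts are uncertain: Atp5g2 (87.7%), Atp5l (69.6%), Atp5h (60.8%), Cox7c (55.7%) and Uqcrb (54.3%).

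Many nuclear genes of the respiratory chain are known targets of the factors NRF1 and GABP, of which GABP belongs to the ETS family, and the start regions of 5 members are shown to let the letters of these sites be compared between members whose RNA did and did not fall. Each sequence is the 250 bases before the transcription start in RefSeq, read 5′ to 3′ on the gene's strand, with capitals marking every copy of GCGCATGC (an NRF1-type site) or CCGGAAG (an ETS-type site) on either strand, where the other strand reads GCATGCGC or CTTCCGG. Positions are GRCm38.p6: Cox5a at chr9:57520982-57521231 (+), Cox6a1 at chr5:115348959-115349208 (-), Sdhb at chr4:140961021-140961270 (+), Uqcr11 at chr10:80406822-80407071 (-) and Ndufa6 at chr15:82354292-82354541 (-).
Cox5a: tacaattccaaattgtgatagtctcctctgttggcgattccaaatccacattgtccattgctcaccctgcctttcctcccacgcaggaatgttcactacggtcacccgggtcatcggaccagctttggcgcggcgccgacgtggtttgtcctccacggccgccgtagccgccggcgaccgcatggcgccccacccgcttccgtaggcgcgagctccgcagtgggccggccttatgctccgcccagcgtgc
Cox6a1: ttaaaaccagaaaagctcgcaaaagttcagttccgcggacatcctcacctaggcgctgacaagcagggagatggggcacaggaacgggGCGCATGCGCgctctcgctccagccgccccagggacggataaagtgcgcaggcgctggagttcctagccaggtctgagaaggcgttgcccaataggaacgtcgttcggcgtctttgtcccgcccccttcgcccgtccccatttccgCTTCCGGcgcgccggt
Sdhb: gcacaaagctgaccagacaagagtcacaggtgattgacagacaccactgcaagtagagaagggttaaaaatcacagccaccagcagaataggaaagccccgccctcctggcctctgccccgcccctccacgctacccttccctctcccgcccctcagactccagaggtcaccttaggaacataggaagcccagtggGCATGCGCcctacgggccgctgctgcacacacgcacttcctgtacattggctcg
Uqcr11: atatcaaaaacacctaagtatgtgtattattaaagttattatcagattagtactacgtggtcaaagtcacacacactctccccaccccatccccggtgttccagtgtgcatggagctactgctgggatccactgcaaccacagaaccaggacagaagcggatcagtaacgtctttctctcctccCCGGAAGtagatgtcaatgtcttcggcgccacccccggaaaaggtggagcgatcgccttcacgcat
Ndufa6: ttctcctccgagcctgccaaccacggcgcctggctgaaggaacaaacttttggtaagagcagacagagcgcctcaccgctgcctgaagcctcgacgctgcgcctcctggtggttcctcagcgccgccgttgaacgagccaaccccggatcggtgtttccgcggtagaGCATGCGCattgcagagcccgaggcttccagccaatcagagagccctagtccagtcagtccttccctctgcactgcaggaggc

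Cox6a1, a complex IV subunit, held overlapping NRF1-type copies in both readings and an ETS-type copy near the start. Sdhb held 1 NRF1-type copy, Uqcr11, a small subunit of complex III, 1 ETS-type copy, and Ndufa6, an accessory subunit of complex I, 1 NRF1-type copy. Cox5a held neither. Over the 300-base windows that include 50 bases after the start, 72 windows of 66 members were in the RefSeq table. In these longer windows Uqcr11 also held the NRF1-type letters and Sdhb the ETS-type letters. The NRF1-type letters stood in 13.9% of them, against 2.70% of all 32851 windows of the table, and the ETS-type letters in 22.2%, against 8.90%. A YY1-type site, AAGATGGC or GCCATCTT, stood in 16.7%, against 2.70%. The broader CCAAT box (CCAAT or ATTGG) stood in 41.7%, against 37.4%, and the GC box (GGGCGG or CCGCCC) in 37.5%, against 35.7%. Among the 19 members with a window whose RNA fell in stimulated Mirc11-/- cells (below), 14.3% of windows held the NRF1-type letters, against 13.7% for the other members, and 28.6% held the ETS-type letters, against 19.6%. A match of letters is a description of the window and does not show that a factor binds there.

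Summed by complex, the levels of stimulated Mirc11-/- cells were the lowest of the 4 groups, and 1 library made up most of the gap. All 78 members summed to 3443, 5102 and 5101 CPM in stimulated Mirc11-/- replicates 1 to 3, against 5517, 5412 and 5833 CPM in unstimulated Mirc11-/- cells. Wild-type cells had 5290, 5929 and 5594 CPM when stimulated, against 5601, 6310 and 5217 CPM when unstimulated. Every stimulated Mirc11-/- library was thus below every unstimulated one, while the wild-type groups overlapped.

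The mean of the stimulated Mirc11-/- libraries was 0.843 times that of unstimulated Mirc11-/- libraries for complex I, 0.849 times for complex II, 0.810 times for complex III, 0.847 times for complex IV and 0.778 times for complex V. With replicates 2 and 3 alone these ratios were 0.943, 0.931, 0.905, 0.955 and 0.875. In wild-type cells they were 1.004 for complex I, 0.985 for complex II, 0.977 for complex III, 1.04 for complex IV and 0.943 for complex V. Complex V had the lowest ratio in both genotypes.

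**Figure D1:**
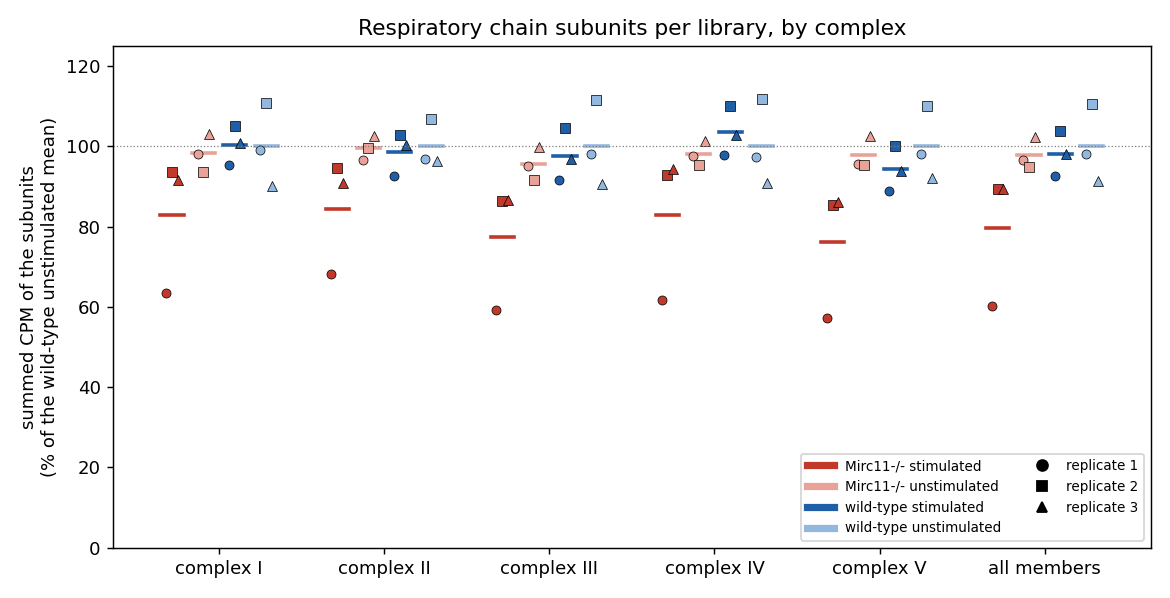
Summed CPM of the subunits of each complex in each library, as a percentage of the unstimulated wild-type mean; points are libraries, with shapes for replicate numbers, and lines are group means. Stimulated Mirc11-/- replicate 1 sits at 57.1% to 68.1% in every complex, and the other stimulated Mirc11-/- libraries at 85.3% to 94.5%.

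Stimulated Mirc11-/- replicate 1 had the lowest value of all 12 libraries for 74 of the 78 members, or 94.9%. The same library was lowest for 25.0% of all tested genes and for 44.6% of the 8024 tested nuclear protein-coding genes that averaged at least 10 CPM. Its median deviation from each gene's mean over the libraries was -0.62 on the log2 scale over the members, and -0.22 over those 8024 genes. Unstimulated wild-type replicate 2 was highest for 48 members, with a median deviation of 0.24. The part that the vomeronasal transcripts, or the RNA behind them, had in these low values was not tested.

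**Figure D2:**
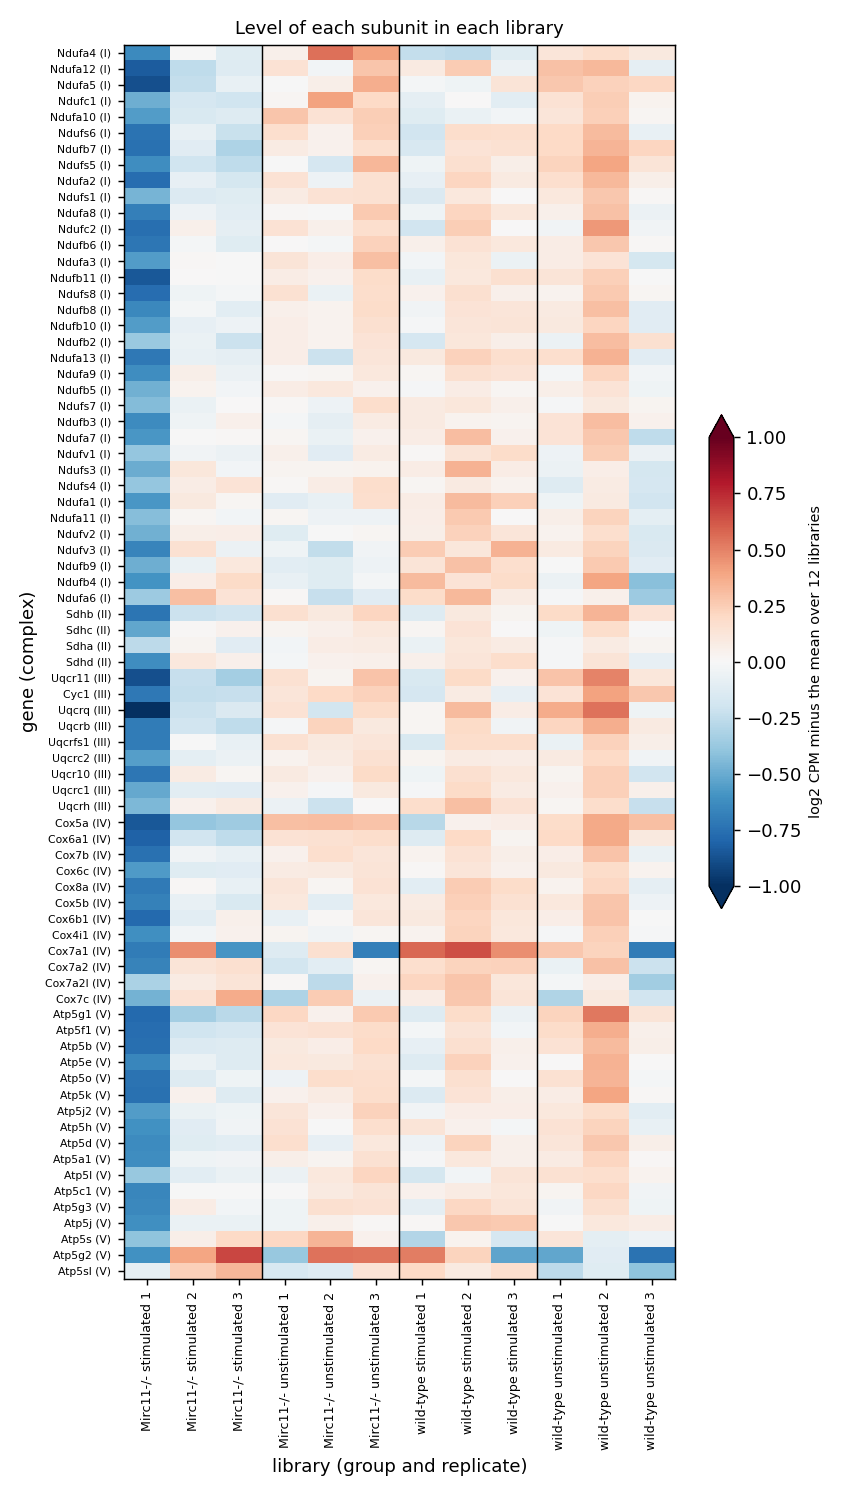
Level of 77 members (down the page, with its complex in brackets) in each library (across, by group and replicate), as log2 CPM minus the gene's mean over the 12 libraries; blue is below and red above that mean. The first column, stimulated Mirc11-/- replicate 1, is blue in nearly every row, with a median of -0.62.

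Stimulation of Mirc11-/- cells was followed by lower RNA for subunits of all 5 complexes. With edgeR's quasi-likelihood test and Benjamini-Hochberg adjustment over all 17457 genes, 25 members fell and 0 rose at an adjusted p under 0.05 (the threshold used throughout). Of all tested genes 22.1% fell and 23.5% rose, and the 25 members make up 32.1% of the set. Among the 8024 nuclear protein-coding genes of at least 10 CPM, 36.6% fell and 15.9% rose, so the share of members that fell lay between the share in all genes and the share in genes of such levels. The log2 fold change was negative for 69 members, with a median of -0.31 over the set, 0.03 over all genes and -0.15 over those 8024 genes. At an unadjusted p under 0.05 there were 38 of the 78 members, all of them lower. So were 9204 of the 17457 tested genes, in either direction. DESeq2 called 0 members higher and 26 lower, and limma voom 0 higher and 27 lower, and both kept all 25. Of all genes, DESeq2 called 3924 higher and 3863 lower, and limma voom 3983 and 3873.

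Without stimulated Mirc11-/- replicate 1, 15 of the 25 were still lower, Atp5sl and Ndufa6 were higher, and the median over the set was -0.14; then 21.3% of all tested genes were lower and 20.7% higher. Leaving out unstimulated Mirc11-/- replicate 3 gave 14 lower members, with 3272 of all 18328 genes lower. Leaving out stimulated Mirc11-/- replicate 2 gave 45, with 3857 of all 18201 genes lower. With the summed vomeronasal level as a covariate 0 members were lower, 3 were higher and the median was 0.53. Of all genes 581 were then lower and 663 higher. The vomeronasal level did not overlap between stimulated and unstimulated libraries, so it cannot be told apart from stimulation here.

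Complex IV held the clearest single change. Cox5a, a structural subunit on the matrix side of cytochrome c oxidase (chromosome 9), had 33.3, 45.9 and 46.9 CPM in stimulated Mirc11-/- replicates 1 to 3, against 73.7, 74.2 and 73.3 CPM in unstimulated Mirc11-/- cells. The groups did not overlap, and stimulated replicates 2 and 3 were also well below every unstimulated library. The log2 fold change of Cox5a was -0.81 ± 0.13 (SE; edgeR adjusted p = 0.000172), and -0.67 ± 0.10 without that library (edgeR adjusted p = 9.37e-05).

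Cox6a1, the widely expressed form of a complex IV subunit, had 42.9, 65.7 and 62.9 CPM in stimulated Mirc11-/- cells and 82.8, 83.3 and 84.6 CPM in unstimulated ones, a log2 fold change of -0.55 ± 0.14 (edgeR adjusted p = 0.00553). Cox6c, another small subunit, also fell, by 0.35 on the log2 scale. In all, 3 of the 12 members of complex IV fell (25.0%). Of all tested genes 22.1% fell, and of the nuclear protein-coding genes of at least 10 CPM 36.6%. The other 9 members of complex IV did not pass: Cox4i1 had an estimate of -0.18, Cox5b, which carries a zinc site, -0.32, and Cox7a2l 0.04. Cox7a2l is known to join complexes III and IV into supercomplexes, and C57BL/6 mice carry a shortened form of it. Cox7a2 and Cox7c, at 0.01 and 0.07, and the scarce Cox7a1, at 0.00 ± 0.40, were the other members of complex IV without a negative estimate.

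In complex I, 10 of 36 members fell (27.8%). Of all tested genes 22.1% fell, and of the nuclear protein-coding genes of at least 10 CPM 36.6%. Ndufa10, an accessory subunit, had 63.0, 83.4 and 84.7 CPM in stimulated Mirc11-/- cells and 112.3, 102.6 and 109.6 CPM in unstimulated ones, with no overlap (log2 fold change -0.49 ± 0.11, edgeR adjusted p = 0.00203). Of the core subunits that carry the flavin and the iron-sulphur clusters, Ndufs1 fell by 0.36 on the log2 scale. Ndufv2 (-0.06), Ndufv1 (-0.16), Ndufs7 (-0.20) and Ndufs8 (-0.33) did not pass. Ndufa4 (-0.58), Ndufa12 (-0.52), Ndufa5 (-0.50), Ndufc1 (-0.49), Ndufs6 (-0.47), Ndufb7 (-0.46), Ndufs5 (-0.41) and Ndufa2 (-0.40) were the other complex I members that fell. Without stimulated Mirc11-/- replicate 1, 5 of these 10 still passed (Ndufa10, Ndufa4, Ndufb7, Ndufc1 and Ndufs1), and the adjusted p was 0.0653 to 0.113 for the other 5. Ndufa6 had the highest estimate at 0.16, with 28.2, 44.6 and 39.9 CPM in stimulated Mirc11-/- cells and 36.7, 30.97 and 33.5 CPM in unstimulated ones, so its groups overlapped.

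In complex II the iron-sulphur subunit fell and its partners did not pass. That is 1 of 4 members (25.0%), against 22.1% of all tested genes and 36.6% of nuclear protein-coding genes of at least 10 CPM. Sdhb had 37.3, 53.3 and 54.2 CPM in stimulated Mirc11-/- cells and 69.3, 66.3 and 72.0 CPM in unstimulated ones. The log2 fold change of Sdhb was -0.52 ± 0.12 (edgeR adjusted p = 0.00383). The flavoprotein Sdha had an estimate of -0.15, and the membrane anchors Sdhc and Sdhd had -0.20 and -0.14.

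In complex III, 4 of 9 genes fell (44.4%), against 22.1% of all tested genes and 36.6% of the nuclear protein-coding genes of at least 10 CPM. Cyc1, which encodes cytochrome c1, had 20.5, 28.5 and 28.6 CPM in stimulated Mirc11-/- cells and 36.5, 38.5 and 39.4 CPM in unstimulated ones (log2 fold change -0.56 ± 0.12, edgeR adjusted p = 0.0022). Uqcr11 fell by 0.61, Uqcrb, which binds ubiquinone, by 0.47, and the core protein Uqcrc2 by 0.31 on the log2 scale. Uqcrc2 was at -0.17 and no longer passed without stimulated Mirc11-/- replicate 1 (edgeR adjusted p = 0.0897), while the other 3 still did. Uqcrfs1, the Rieske iron-sulphur protein, at -0.35, and the core protein Uqcrc1, at -0.27, did not pass. Uqcrh had 71.3, 99.97 and 103.6 CPM in stimulated cells and 93.1, 83.9 and 97.2 CPM in unstimulated ones, a log2 fold change of 0.00 ± 0.13.

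ATP synthase had 7 of 17 members lower (41.2%), against 22.1% of all tested genes and 36.6% of the nuclear protein-coding genes of at least 10 CPM. Atp5g1 is one of the genes Atp5g1, Atp5g2 and Atp5g3, which encode the same mature c subunit of the rotor ring. It had 44.1, 59.95 and 62.9 CPM in stimulated Mirc11-/- cells and 87.3, 77.9 and 91.0 CPM in unstimulated ones (log2 fold change -0.62 ± 0.14, edgeR adjusted p = 0.00275). Atp5g3, at -0.25, did not pass, and Atp5g2, at -0.04 ± 0.37, varied from 9.10 to 21.9 CPM within the stimulated group. Atp5f1 of the peripheral stalk fell by 0.51 and the catalytic Atp5b by 0.43 on the log2 scale. Atp5b no longer passed with upper-quartile scaling (edgeR adjusted p = 0.0511), which moves the median of all genes to 0.17. The small subunits Atp5e (-0.38), Atp5j2 (-0.34), Atp5h (-0.34) and Atp5d (-0.33) completed those that fell, and Atp5a1, at -0.29, did not pass. Without stimulated Mirc11-/- replicate 1, Atp5f1, Atp5g1 and Atp5b still passed, and these 4 small subunits did not (edgeR adjusted p = 0.102 to 0.154).

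**Figure D3:**
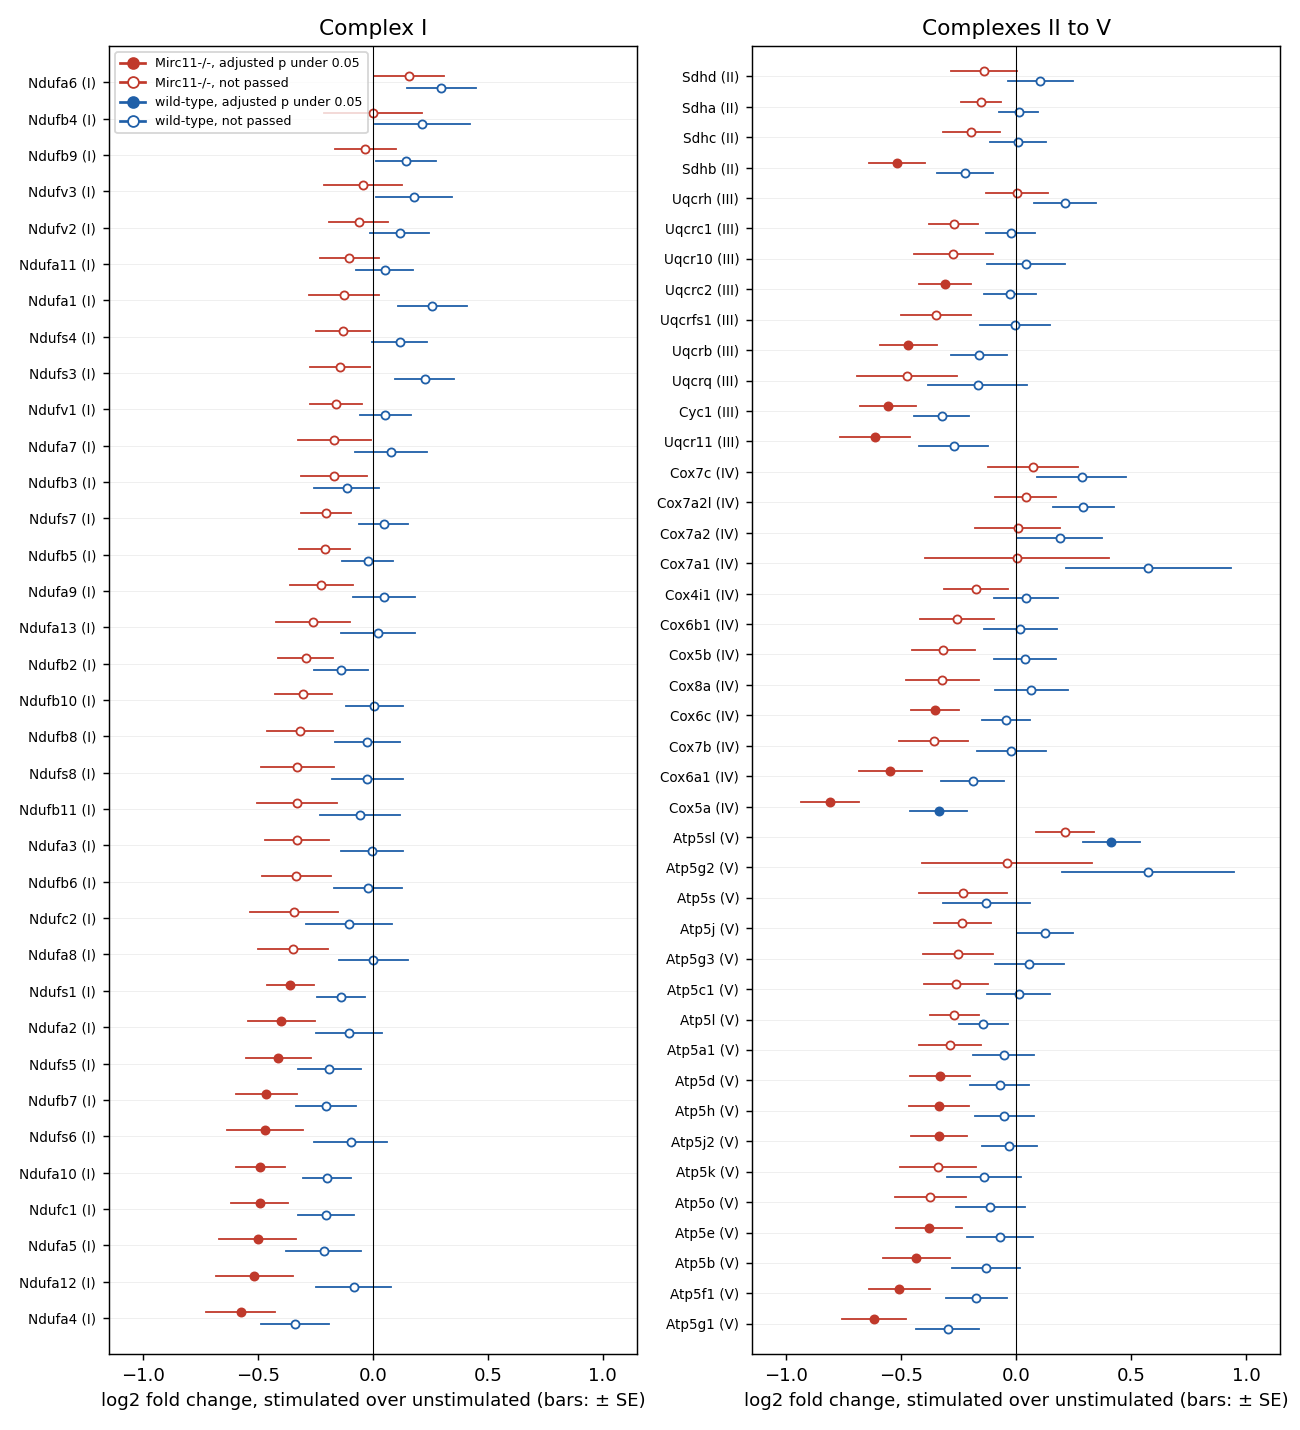
Log2 fold change of 77 members, stimulated over unstimulated, in Mirc11-/- cells (red, upper of each pair) and wild-type cells (blue, lower), with bars of 1 standard error and filled points at an adjusted p under 0.05. Red points lie left of their blue partners for every member drawn, and 25 red and 2 blue points are filled.

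In wild-type cells the same stimulation left the summed levels overlapping, and few members passed. Atp5sl rose and Cox5a fell, which is 1 member in each direction, while 16.1% of all tested genes rose and 15.7% fell. Of the nuclear protein-coding genes of at least 10 CPM, 17.0% rose and 22.9% fell. The median over the set was -0.02, with 43 negative estimates, and 0.02 over all genes. DESeq2 and limma voom called the same members. In these cells replicates with the same number deviated together, and a fit with the replicate number as a block called 2 members higher and 4 lower, against 16.9% and 17.2% of all genes. The members it added were Atp5g2 among the higher and Atp5g1, Cyc1 and Ndufa4 among the lower. Stimulated Mirc11-/- replicate 1 enters the filter, the scaling and the shared estimate of spread but neither wild-type group. Without it, the wild-type contrast had 3 members higher and 6 lower. Of all 17683 genes then tested, 3354 were higher and 3498 lower. Both calls of the main fit ended when any of several single libraries was left out: the edgeR adjusted p reached 0.103 for Atp5sl and 0.201 for Cox5a.

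Cox5a had 49.6, 61.7 and 62.8 CPM in stimulated wild-type replicates 1 to 3 and 68.2, 78.2 and 73.7 CPM in unstimulated ones, a log2 fold change of -0.34 ± 0.12 (edgeR adjusted p = 0.0495). Atp5sl had 18.4, 17.1 and 18.0 CPM in stimulated wild-type cells and 13.4, 14.8 and 12.1 CPM in unstimulated ones, a log2 fold change of 0.41 ± 0.13 (edgeR adjusted p = 0.0214). Neither gene overlapped between the wild-type groups. In Mirc11-/- cells Atp5sl had 15.1, 18.9 and 20.2 CPM when stimulated and 14.4, 14.7 and 17.6 CPM when unstimulated, with an estimate of 0.21 that did not pass.

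The members had a similar order of response in both genotypes, although no library is shared by the Mirc11-/- and wild-type contrasts. Across the 78 members, Mirc11-/- and wild-type log2 fold changes had a Pearson r of 0.88 and a Spearman rho of 0.90, and 0.88 and 0.89 without both stimulated replicates 1. Over all 17457 genes they were 0.80 and 0.78, and over the 8024 nuclear protein-coding genes of at least 10 CPM 0.91 and 0.88; genes are not independent replicates, and members within a library share its scaling and quality. All 25 members that fell in Mirc11-/- cells had negative estimates in wild-type cells. Relative to the median of the set, 32 members were below it in both genotypes, 32 above it in both and 14 on opposite sides. Transcript length, GC content and level had little relation to the Mirc11-/- change, with Pearson r of 0.00, 0.05 and -0.14 over the members.

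**Figure D4:**
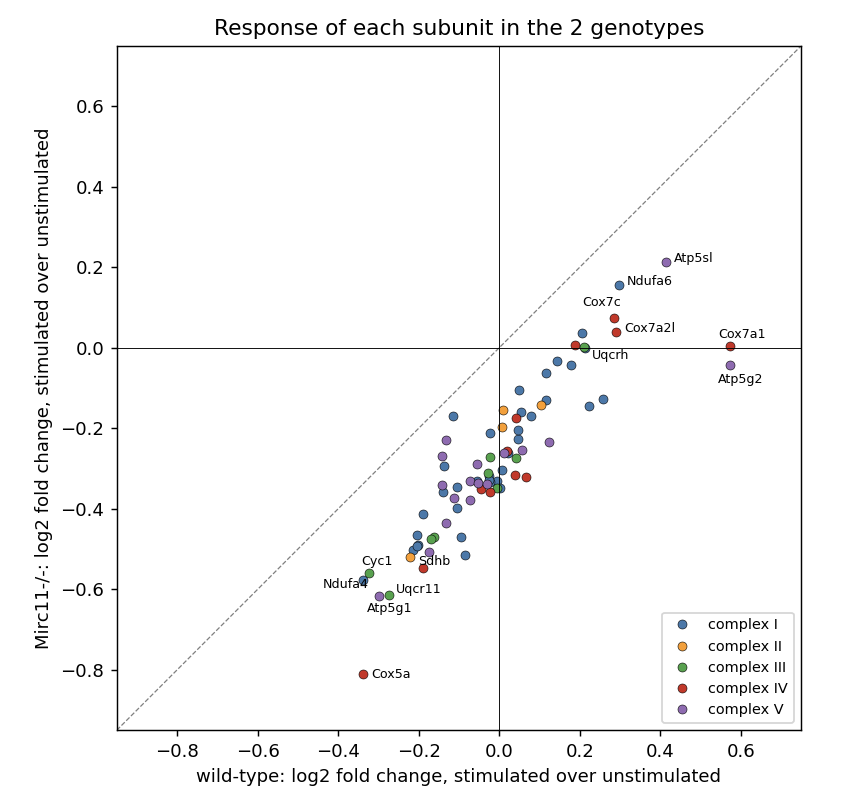
Log2 fold change of each member on stimulation in Mirc11-/- cells (vertical axis) and in wild-type cells (horizontal axis), coloured by complex; the dashed line marks equal values. All points lie below the dashed line, along a band from Cox5a to Atp5sl (Pearson r 0.88, n = 78 genes).

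The share of a subunit in the summed CPM of its own complex does not depend on the scaling between libraries. Cox5a made up 4.65%, 4.27% and 4.29% of complex IV in stimulated Mirc11-/- cells, against 6.53%, 6.72% and 6.25% in unstimulated Mirc11-/- cells. The same share was 4.38%, 4.84% and 5.28% in stimulated wild-type cells, against 6.04%, 6.04% and 7.01% in unstimulated wild-type cells. It was lower in every stimulated library than in any unstimulated one, stimulated Mirc11-/- replicate 1 included.

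Sdhb made up 19.4% ± 0.850 of complex II in stimulated Mirc11-/- cells and 23.7% ± 0.889 in unstimulated ones, and 21.4% ± 0.570 in stimulated and 24.6% ± 0.530 in unstimulated wild-type cells (SD, n = 3 each). Cyc1 made up 5.97% ± 0.163 of complex III in stimulated Mirc11-/- cells and 7.10% ± 0.328 in unstimulated ones, and 5.88% ± 0.122 in stimulated and 7.23% ± 0.646 in unstimulated wild-type cells. For both genes the stimulated and unstimulated libraries did not overlap in either genotype.

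Shares of other subunits were higher after stimulation. Where some shares of a complex fall others must rise, because their total is fixed. In Mirc11-/- cells the log2 fold changes of Uqcrh (0.00), Ndufa6 (0.16) and Cox7a2l (0.04) did not pass. Uqcrh made up 21.1% ± 0.472 of complex III in stimulated Mirc11-/- cells and 17.0% ± 0.634 in unstimulated ones, and 20.5% ± 0.843 in stimulated and 17.2% ± 0.856 in unstimulated wild-type cells. Ndufa6 made up 3.33% ± 0.159 of complex I in stimulated Mirc11-/- cells and 2.53% ± 0.2 in unstimulated ones, and 3.06% ± 0.221 in stimulated and 2.498% ± 0.189 in unstimulated wild-type cells. Cox7a2l made up 17.4% ± 1.3 of complex IV in stimulated Mirc11-/- cells and 14.2% ± 1.26 in unstimulated ones, and 16.2% ± 0.987 in stimulated and 13.7% ± 1.08 in unstimulated wild-type cells. The values behind each of these means did not overlap between stimulated and unstimulated libraries of a genotype; these members were picked after their values were seen, and no test was run on shares.

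**Figure D5:**
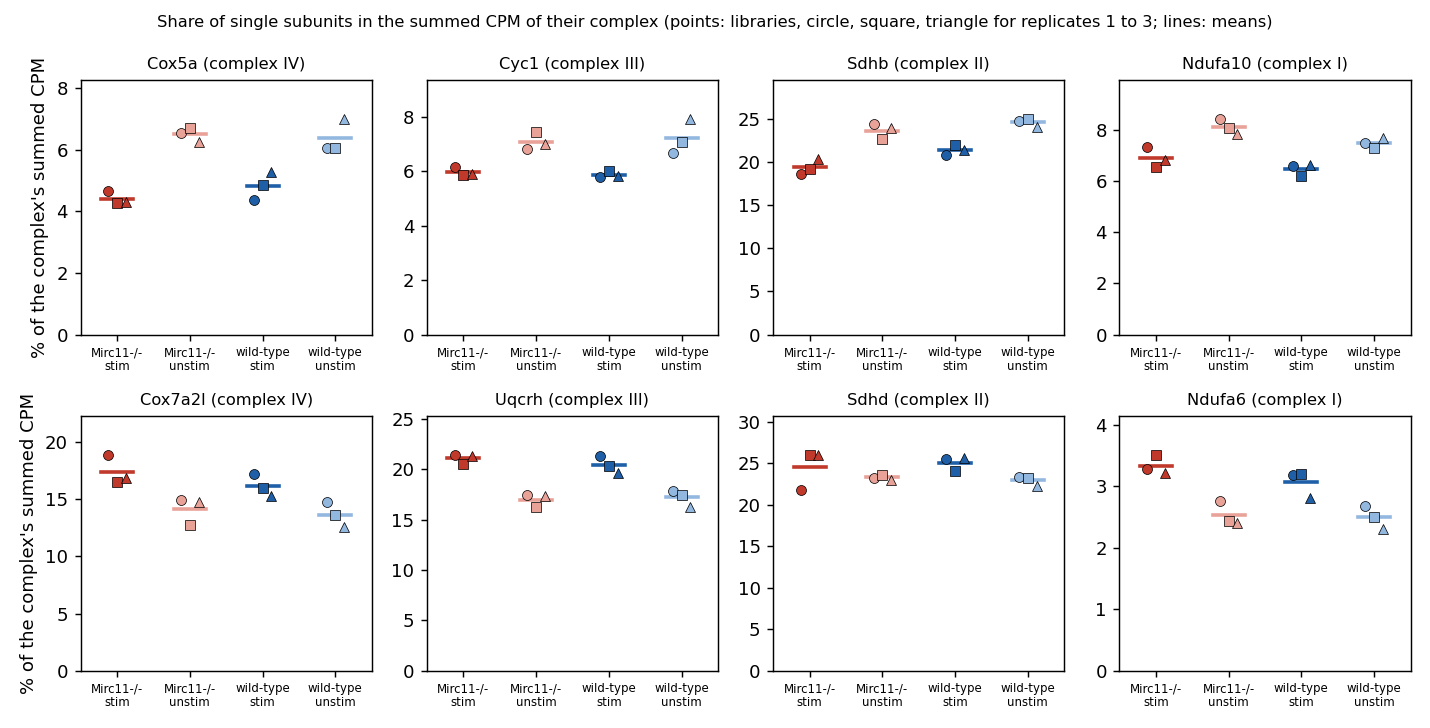
Share of 8 subunits in the summed CPM of their complex, in percent, for each library and group; points are libraries and lines are means. Cox5a, Cyc1, Sdhb and Ndufa10 (upper row) have lower shares, and Cox7a2l, Uqcrh and Ndufa6 (lower row) higher shares, in stimulated than in unstimulated cells of each genotype, while Sdhd overlaps in Mirc11-/- cells.

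Before stimulation the genotypes did not separate. Of the members 0 were higher and 0 lower in unstimulated Mirc11-/- than in unstimulated wild-type cells with edgeR, DESeq2 and limma voom, while 0.309% of all tested genes were higher and 0.796% lower with edgeR. At an unadjusted p under 0.05 edgeR had 0 members and 9.21% of all genes. The median over the set was -0.02, and estimates ran from -0.25 for Uqcrq, a small complex III subunit, to 0.73 for Atp5g2. Atp5g2 had 10.7, 20.1 and 19.97 CPM in unstimulated Mirc11-/- cells and 9.61, 12.8 and 8.30 CPM in unstimulated wild-type cells (edgeR adjusted p = 0.640). Its levels overlapped, and its transcript shares most of its sequence with other genes. Atp5sl, with an estimate of 0.22, had the next smallest p.

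After stimulation, members were mostly lower in Mirc11-/- than in wild-type cells, and few passed. Cox5a and Uqcrb were lower and 0 members higher, while 5.13% of all tested genes were lower and 3.89% higher. Of the nuclear protein-coding genes of at least 10 CPM, 9.35% were lower and 2.03% higher. Estimates were negative for 75 members, with a median of -0.29 over the set and 0.02 over all genes, and 38 members, all lower, had an unadjusted p under 0.05, as did 30.1% of all genes. For Cox5a the log2 fold change was -0.47 ± 0.12 (edgeR adjusted p = 0.0366) from the values given above, and the groups did not overlap. Uqcrb had 21.3, 30.2 and 29.1 CPM in stimulated Mirc11-/- cells and 35.1, 39.5 and 33.8 CPM in stimulated wild-type cells, with no overlap and a log2 fold change of -0.43 ± 0.13 (edgeR adjusted p = 0.0480). DESeq2 called 13 members lower and limma voom 3, and both called 0 higher. Of all 17457 genes, DESeq2 called 1457 lower and 909 higher, and limma voom 885 and 751. Without stimulated Mirc11-/- replicate 1, edgeR called 0 members lower, against 2.86% of all genes, and the median was -0.13. An unadjusted p under 0.05 then held for 13 of the 78 members and for 3541 of all 17683 genes. Leaving out stimulated Mirc11-/- replicate 2 gave 12 lower members, with 1242 of all 18201 genes lower. Leaving out stimulated wild-type replicate 1 gave 6, with 1100 of all 18253 genes lower. With the vomeronasal covariate the median turned to 0.17. The vomeronasal level did not overlap between stimulated Mirc11-/- and stimulated wild-type libraries, so it cannot be told apart from genotype here.

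The difference between the Mirc11-/- and wild-type responses to stimulation was tested directly as an interaction. All 78 estimates were negative, with a median of -0.28 over the set and -0.02 over all genes, and 0 members passed in either direction with edgeR, DESeq2 or limma voom. With edgeR 0.0% of all genes passed as higher and 0.0115% as lower. At an unadjusted p under 0.05 edgeR had 1 member and 10.6% of all genes. That member was Cox5a, at -0.47 ± 0.17 (edgeR adjusted p = 0.445), and Cox6c followed at -0.31. Without stimulated Mirc11-/- replicate 1, 72 estimates were negative, with a median of -0.10, and with the vomeronasal covariate the median was 0.16. The vomeronasal level was higher in every stimulated Mirc11-/- library than in any other, so it cannot be told apart from the interaction here. That more members passed in Mirc11-/- than in wild-type cells is therefore not shown to be a difference between the genotypes.

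Genes that act on or beside the chain were read from lists, and many of them moved the same way in both genotypes. Of 14 tricarboxylic acid cycle enzymes, 10 (71.4%) fell in Mirc11-/- cells and 6 (42.9%) in wild-type cells on stimulation. Of all tested genes 22.1% fell in Mirc11-/- and 15.7% in wild-type cells. For nuclear protein-coding genes of at least 10 CPM these shares were 36.6% and 22.9%. Idh3a, a subunit of isocitrate dehydrogenase, had log2 fold changes of -0.81 in Mirc11-/- and -0.72 in wild-type cells, Mdh2, malate dehydrogenase, -0.71 and -0.43, and Ogdh, of the oxoglutarate dehydrogenase complex, -0.54 and -0.49. Of 19 mitochondrial protein import genes, 12 (63.2%) fell in Mirc11-/- and 6 (31.6%) in wild-type cells. Hspa9, the matrix chaperone that pulls proteins in, had -1.04 in Mirc11-/- and -0.62 in wild-type cells, and Timm17a of the inner membrane translocase -0.85 and -0.65.

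Among 16 tested regulators of mitochondrial biogenesis, 9 fell (56.2%) and 2 rose (12.5%) in Mirc11-/- cells, against 22.1% and 23.5% of all tested genes. In wild-type cells 5 fell (31.2%) and 1 rose (6.25%), against 15.7% and 16.1%. Of nuclear protein-coding genes of at least 10 CPM, 36.6% fell and 15.9% rose in Mirc11-/- cells. In wild-type cells 22.9% of them fell and 17.0% rose. Myc, a transcription factor that drives growth genes, had -1.68 in Mirc11-/- and -1.04 in wild-type cells, and Pprc1, a coactivator of NRF1, -1.55 and -1.40. Gabpb1, a subunit of GABP, had -0.57 in Mirc11-/- and -0.45 in wild-type cells. Nrf1 fell in Mirc11-/- cells (-0.32, edgeR adjusted p = 0.0053) and did not pass in wild-type cells (-0.08), and Nfe2l2, which encodes a different factor also called NRF2, rose in both (0.38 and 0.55). Of 12 mitochondrial dynamics and cristae genes 6 fell and 1 rose in Mirc11-/- cells, and 4 fell and 1 rose in wild-type cells, with Phb, prohibitin, at -1.04 and -0.72.

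Assembly factors of complex IV fell in 8 of 23 cases in Mirc11-/- and in 5 of 23 in wild-type cells. These shares, 34.8% and 21.7%, lay above the 22.1% and 15.7% of all tested genes and near the 36.6% and 22.9% of nuclear protein-coding genes of at least 10 CPM. They included the copper chaperones Sco1 (-0.85 in Mirc11-/- and -0.55 in wild-type cells) and Cox17 (-0.37 and -0.35). Of 15 complex I assembly factors, 5 fell (33.3%) and 2 rose (13.3%) in Mirc11-/- cells. In wild-type cells 2 fell and 2 rose (13.3% each). Ecsit fell in both genotypes (-0.85 and -0.41) and Tmem126b rose in both (0.75 and 0.75). Of 4 complex II factors only Sdhaf1 passed, higher in wild-type cells (0.51). Complex III factors had 1 lower of 6 (16.7%) and complex V factors with the inhibitor Atpif1 2 lower of 5 (40.0%) in Mirc11-/- cells. Neither list had a member that passed in wild-type cells.

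Cycs, cytochrome c itself, fell in both genotypes (-0.51 in Mirc11-/- and -0.49 in wild-type cells), and Ndufab1, the acyl carrier protein bound to complex I, did not pass in either (0.18 and 0.15). Of 15 glycolysis genes 4 fell in Mirc11-/- cells (26.7%), and no others passed in either genotype. In Mirc11-/- cells 22.1% of all tested genes fell, and 36.6% of nuclear protein-coding genes of at least 10 CPM. The 13 mitochondrially encoded subunits summed to 16520, 15430 and 16570 CPM in stimulated Mirc11-/- cells, against 17000, 13210 and 13830 CPM in unstimulated Mirc11-/- cells, and 17030, 15380 and 15550 CPM in stimulated wild-type cells, against 13100, 12780 and 11890 CPM in unstimulated wild-type cells. Of these, 1 rose and 1 fell in Mirc11-/- cells (7.69% each), and 2 rose (15.4%) and 3 fell (23.1%) in wild-type cells. A single gene, mt-Atp6, had 1880 to 2135 CPM in stimulated Mirc11-/-, 50.1 to 143 CPM in unstimulated Mirc11-/-, 1634 to 1961 CPM in stimulated wild-type and 29.8 to 56.97 CPM in unstimulated wild-type libraries. Without mt-Atp6 the sum averaged 14194 ± 561 CPM in stimulated and 14594 ± 2070 CPM in unstimulated Mirc11-/- cells, and 14231 ± 728 CPM in stimulated and 12545 ± 611 CPM in unstimulated wild-type cells (SD, n = 3 each). The median log2 fold change of the 13 genes was -0.251 in Mirc11-/- and -0.002 in wild-type cells. The list counts stand beside the same background of called genes as the members' counts, and stimulated Mirc11-/- replicate 1 enters both.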

How the data were processed

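The authors deposited RSEM expected counts per gene, already rounded to whole numbers and not scaled between libraries; the submitters' processing notes list GRCm38, RSEM 1.3.0, Bowtie2 2.2.8, Trim Galore 0.4.1 and bcl2fastq. Neither the annotation release nor the strand setting is given in the sources used here, and antisense or overlapping genes could not be separated. The table held 50674 genes and its 12 columns matched the sample titles. The members and the gene lists were chosen with earlier results of these data known.

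Low counts were removed with filterByExpr (by group) and TMM factors were applied to the rest. All 12 libraries entered a single robust quasi-likelihood fit with a mean for each group (edgeR 4.0.16, R 4.3.3). Contrasts were stimulation within each genotype, Mirc11-/- minus wild-type within each treatment, and the interaction. Adjustment of the two-sided p-values was by Benjamini-Hochberg across 17457 genes. CPM use the TMM-adjusted library size, except for the limit of 1 CPM that chose the members, which used library totals. Library deviations used log2 of CPM plus 0.01. The fit was checked on simulated counts with a single fixed spread and no shift of a whole library. That check therefore does not cover a library such as stimulated Mirc11-/- replicate 1. Alternatives were other scalings and filters, DESeq2 1.42.0, limma 3.58.1 (voom), fewer groups, a replicate block, a vomeronasal covariate and leaving out each library; 2 alternatives, leaving out both stimulated replicates 1 and keeping only nuclear protein-coding genes, were chosen after seeing the data.

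Same-numbered stimulated and unstimulated wild-type libraries deviated together (correlations 0.26, 0.37 and 0.32 over genes). The main fit did not pair them, and only the alternative with a replicate block did. Other pairs of groups had at least 1 correlation under 0.1, and the block was applied to their contrasts as well.

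Named members were, per contrast, up to 4 members with the smallest p in each direction among those that passed, or 2 where none passed, the highest per length in each complex, the catalytic or defining subunits, the tissue isoforms and those beside the 1 CPM limit; of each list, up to 3. Other members and list genes in the text were picked with their values known. Transcript lengths, GC and shared 31-base words came from GENCODE vM21, and promoter windows from RefSeq (GRCm38.p6). A member that is counted in the sums and counts is not reported here by name.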

Additional observations from a re-analysis of the deposited data

How the results depend on the processing

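In stimulated minus unstimulated Mirc11-/- cells, the number of members lower (25) became 15 with upper-quartile factors, 41 with no filter, 39 with a replicate block, 14 with the compared groups alone, 15 without both stimulated replicates 1, 0 with the vomeronasal covariate and 14 to 45 with 1 library left out; the number higher (0) became 1 with upper-quartile factors, 1 with the stricter filter, 2 without both stimulated replicates 1, 3 with the covariate and 0 to 2 with 1 library left out; the median ran from -0.42 to -0.14 with 1 library left out and was 0.53 with the covariate. In wild-type cells the number higher (1) became 2 with upper-quartile factors, 0 with no filter, 2 with the stricter filter, 2 with a replicate block, 3 with the compared groups alone, 4 without both stimulated replicates 1, 33 with the covariate and 0 to 3 with 1 library left out; the number lower (1) became 0 with RLE factors, 5 with no composition factor, 2 with no filter, 2 with the stricter filter, 4 with a replicate block, 3 with the compared groups alone, 2 with nuclear protein-coding genes, 2 without both stimulated replicates 1, 0 with the covariate and 0 to 6 with 1 library left out; the median was 0.41 with the covariate. In stimulated Mirc11-/- minus wild-type cells the number lower (2) became 1 with upper-quartile factors, 1 with no composition factor, 1 with the stricter filter, 17 with no filter, 13 with DESeq2, 11 with a replicate block, 6 with nuclear protein-coding genes, 4 without both stimulated replicates 1, 0 with the compared groups alone, 0 with the covariate and 0 to 12 with 1 library left out; the median was 0.17 with the covariate. The interaction's median ran from -0.38 to -0.10 with 1 library left out and was 0.16 with the covariate, and a replicate block left 0 members called. Counts over all genes changed as well. In stimulated minus unstimulated Mirc11-/- cells, 2848 genes were lower with upper-quartile factors and 4295 of 42168 with no filter. A replicate block gave 4165, the compared groups alone 3142 of 16518 and the covariate 581. In stimulated Mirc11-/- minus wild-type cells, 1389 genes were lower with no filter, 1457 with DESeq2, 1176 with a replicate block and 22 with the covariate. The causes were not tested.

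The vomeronasal covariate cannot be told apart from stimulation, or from genotype in stimulated cells. With it 14 of the 19 named log2 fold changes turned sign, and none of these 14 passed. On stimulation of Mirc11-/- cells they were 0.514 for Atp5b, 0.304 for Atp5g1, 0.008 for Cox5a, 0.439 for Cox6a1, 0.241 for Cox6c and 0.092 for Cyc1. They were 0.158 for Ndufa10, 0.294 for Ndufs1, 0.321 for Sdhb, 0.141 for Uqcrb and 0.316 for Uqcrc2. Cox5a was 0.045 in wild-type cells and 0.002 in stimulated Mirc11-/- minus wild-type cells, and the Cox6c interaction was 0.0. Upper-quartile factors moved the median of all genes to 0.17 on stimulation of Mirc11-/- cells and to 0.12 between stimulated Mirc11-/- and wild-type cells.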
